A study of Mus musculus with 6 samples.

Results

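Retinoic acid is a vitamin A derivative that fibroblasts and other embryonic cells make, sense and destroy. Measured here were 5 genes of this pathway out of 38483 genes listed in an RNA-seq series of mouse embryonic fibroblasts (MEFs), namely Aldh1a7 and Aldh1a3 (aldehyde dehydrogenases), Cyp26b1 (breakdown) and the receptors Rarb and Rarg. The genes were chosen by name among the pathway genes on the minus strand, after differences between the genotypes were known. Their genotype differences are therefore a description of these cultures. No p-value is given for them, and where the threshold of the fit across all genes is mentioned, it is not evidence for their choice. In Nipbl+/- MEFs, Aldh1a7 was 5.36-fold lower than in wild-type (WT) MEFs, and the other 4 genes overlapped between the genotypes.

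The cells were 3 WT and 3 Nipbl+/- cultures on a CD1 background, harvested at passage 3 and untreated. Nipbl encodes a factor that loads cohesin onto chromatin, and the mutant cultures carry a heterozygous knockout and were compared with those of WT littermates, as a mouse model of Cornelia de Lange syndrome. By the study's methods, the embryos came from 1 pregnant mouse in mid-gestation and were minced after their limbs, brain and internal organs had been taken away, so tests measure only the spread between these cultures. A MEF culture is a mixture of mesenchymal cells, in which fewer cells of a type and less RNA per cell cannot be told apart.

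Total counts ran from 20307454 to 25990783 reads per culture. The plus strand carries 19214 of the listed genes, all of them with 0 reads in every culture, so the plus-strand genes of the pathway, among them Aldh1a1, Aldh1a2, Cyp26a1, Rara and all RXR genes, could not be assessed. Of the 9061 genes with enough counts to be tested with edgeR's quasi-likelihood test, 177 passed an adjusted p-value of 0.05, with 94 higher in the mutant (1.04%) and 83 lower (0.916%). Nipbl itself averaged 136 ± 8.26 CPM (reads scaled to a common library size with TMM factors) in the WT group, against 100.8 ± 0.505 CPM in the mutant group (SD, n = 3 each), a log2 fold change of -0.43. Of 16 fibroblast markers only Fn1, Prrx1 and Ddr2 lie on the minus strand, and all 3 were expressed in every culture, with Prrx1 lower in every mutant culture than in any WT culture (log2 fold change -0.30, not past the threshold). For 8 macrophage markers the summed level was higher in Nipbl+/- MEFs, from 90.5 to 180 CPM against 56.1 to 76.1 CPM in WT, with 0 of them past the threshold in edgeR's quasi-likelihood test. None of the 8 was at 0. The summed level of 5 epithelial markers was lower, from 11.5 to 14.1 CPM against 14.4 to 15.8 CPM in WT. Single epithelial markers differed in direction. Of the 3 tested, 1 was above and 1 below all WT cultures in every mutant culture, and 0 were past the threshold. The sums of endothelial, neural, muscle and chondrocyte markers overlapped. The part of these markers in the results below was not tested.

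Cells oxidize retinol to retinal and then, by retinaldehyde dehydrogenases, to retinoic acid. Retinoic acid binds receptors of the RAR family, which pair with RXRs on DNA and control target genes, while CYP26 enzymes oxidize it for removal. In the embryo, gradients set by local synthesis and breakdown help to position the hindbrain, the trunk and the proximal limb, partly through Hox and Meis genes.

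Aldh1a7 was the member that differed. Its product is a rodent paralog of the retinaldehyde dehydrogenase Aldh1a1, and it is not established as a main source of retinoic acid. The gene (ENSMUSG00000024747) lies on the minus strand at chr19:20692953-20727562 of mm10 and has 13 exons in GENCODE M21. It had 66, 45 and 40 reads in WT replicates 1, 2 and 3, and 7, 8 and 14 reads in Nipbl+/- replicates 1, 2 and 3. In CPM these were 2.99, 2.003 and 1.86 in WT and 0.316, 0.306 and 0.668 in Nipbl+/- MEFs. Every Nipbl+/- culture was below every WT culture, with WT replicate 1 the highest and Nipbl+/- replicate 3 the highest of the mutants.

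The mean level of Aldh1a7 was 2.28 ± 0.619 CPM over the WT cultures, against 0.430 ± 0.207 CPM over the mutant ones (SD, n = 3 each). On the log2 scale this was a difference of -2.42 ± 0.36 (standard error), and the 95% interval ran from -3.25 to -1.59. This was the 7th lowest log2 fold change of the 9061 tested genes. The gene was chosen with this contrast in view, so the rank is a description and no evidence. Nipbl+/- replicates 1 and 2 had fewer reads than the filter's minimum of 10, so the WT cultures carried the gene through the filter. Reads were few, and 7 reads have a 95% Poisson interval from 2.81 to 14.4 reads, which covers counting error only. The spread between replicates of a genotype was wider than counting error over all genes.

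Of the 5 members, 1 was past the threshold of the fit across all genes, and this was Aldh1a7. Over all tested genes 177 of 9061 (1.95%) were past it, and nothing is read from the comparison because the members were chosen with this contrast in view. When single cultures were dropped, the log2 fold change of Aldh1a7 lay between -2.86 and -2.18. It was not past the threshold without WT replicate 1 (log2 fold change -2.18), without Nipbl+/- replicate 1 (-2.26) or without Nipbl+/- replicate 2 (-2.21). It was also not past it with the replicate number as a block (-2.41).

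**Figure D1:**
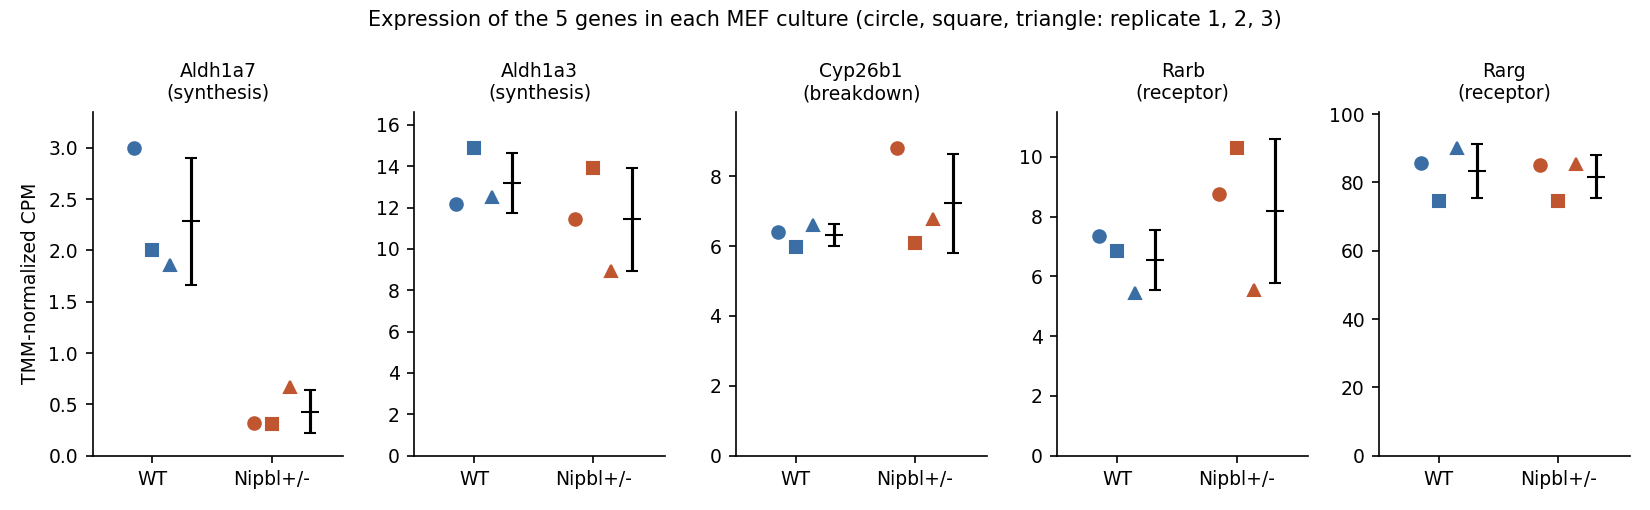
TMM-normalized CPM of each gene in the 3 WT (blue) and 3 Nipbl+/- (orange) MEF cultures, with symbols for the replicate numbers and the mean and SD (bars, n = 3) beside them. Aldh1a7 separates the genotypes, from 1.86 to 2.99 CPM in WT and from 0.306 to 0.668 CPM in Nipbl+/- MEFs, while the ranges of the other 4 genes overlap.

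How reads were divided between Aldh1a7 and Aldh1a1 is a limit on these values. The coding sequences of the pair are 91.6% identical, against 68.0% for Aldh1a7 and Aldh1a3. Of 2017 50-base stretches in the Aldh1a7 transcript, 151 (7.49%) also occur in Aldh1a1 transcripts. The read length and the handling of reads with several matches are not given in the sources used here. Aldh1a1 lies 49.5 kb away on the plus strand and was listed at 0.

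The likeness of the pair extends to the DNA upstream of both genes. The 100 bases before the RefSeq start sites (GRCm38.p6, which is mm10) are shown because they differ at only 6 of 100 positions. Capitals mark the octamer ATGCAAAT, the recognition sequence of POU-domain factors, 49 to 56 bases before each start. The first stretch is chr19:20727557-20727656 on the minus strand and the second is chr19:20601868-20601967 on the plus strand.
Aldh1a7: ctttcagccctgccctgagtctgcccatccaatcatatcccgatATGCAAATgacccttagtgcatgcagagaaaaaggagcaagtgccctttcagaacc
Aldh1a1: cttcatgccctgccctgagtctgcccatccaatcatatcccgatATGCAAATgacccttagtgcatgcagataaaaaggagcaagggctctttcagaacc
Over the 250 bases before the start, the aligned part was 73.6% identical. The octamer, searched on both strands, occurs in 570 of 32851 RefSeq promoter windows (1.74%), each of 250 bases before and 50 bases after a start. Of the 59 windows of the retinoid pathway list, 4 held it, those of Aldh1a1, Aldh1a2, Aldh1a7 and Aldh8a1. A match is a description of the letters and not a measured binding site.

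Around Aldh1a7, the nearest other minus-strand gene, Tmc1 (an inner-ear channel gene), lies 55.9 kb away and had too few reads to be tested. The only tested gene within 500 kb was Anxa1 (annexin A1), 302 kb away, with a log2 fold change of -0.21 and a standard error of 0.16. It was not past the threshold in edgeR's quasi-likelihood test.

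Aldh1a3 encodes a retinaldehyde dehydrogenase that makes retinoic acid in the developing eye, nose and other ectodermal tissues. The gene (ENSMUSG00000015134) lies at chr7:66390892-66427517 on the minus strand. Its levels were 12.2, 14.9 and 12.5 CPM in WT replicates 1, 2 and 3, and 11.5, 13.9 and 8.93 CPM in Nipbl+/- replicates 1, 2 and 3. The groups overlapped, with Nipbl+/- replicate 3 alone below the WT range by a wide margin and Nipbl+/- replicate 2 inside it. The mean was 13.2 ± 1.47 CPM for WT, against 11.4 ± 2.49 CPM for the mutant (SD, n = 3 each). The log2 fold change was -0.20 with a 95% interval from -0.58 to 0.18, so a level down to 0.67-fold of WT lay inside the interval.

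Levels of the pair can be set side by side per length, in the deposited RPKM values (reads scaled by gene length and library size). Aldh1a3 had 2.72 ± 0.286 RPKM in WT and 2.42 ± 0.506 RPKM in Nipbl+/- MEFs, and Aldh1a7 had 1.05 ± 0.267 and 0.205 ± 0.102 RPKM (SD, n = 3 each). Within a culture, Aldh1a3 exceeded Aldh1a7 by 1.82-fold, 3.32-fold and 3.02-fold in WT replicates 1, 2 and 3, and by 16.2-fold, 20.4-fold and 5.98-fold in Nipbl+/- replicates 1, 2 and 3. Aldh1a3 was the more abundant of the pair in all 6 cultures. The summed RPKM of both genes was 3.77 ± 0.209 in WT and 2.63 ± 0.421 in Nipbl+/- MEFs, and Aldh1a7 made up 27.8% ± 6.69 and 8.27% ± 5.28 of it (SD, n = 3 each). This sum leaves out Aldh1a1 and Aldh1a2, which are listed at 0. It includes Aldh1a7, which was chosen with this contrast in view, and is no measure of retinoic acid made.

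Cyp26b1 encodes the cytochrome P450 that clears retinoic acid from the distal limb bud, the hindbrain and the fetal testis. The gene (ENSMUSG00000063415) lies at chr6:84571414-84593908 on the minus strand. Its levels were 6.40, 5.96 and 6.59 CPM in WT replicates 1, 2 and 3, and 8.79, 6.08 and 6.78 CPM in Nipbl+/- replicates 1, 2 and 3. Only Nipbl+/- replicate 1 stood well above the WT range, and Nipbl+/- replicate 2 lay inside it. The mean was 6.32 ± 0.320 CPM for WT, against 7.22 ± 1.41 CPM for the mutant (SD, n = 3 each).

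The log2 fold change of Cyp26b1 was 0.19 with a 95% interval from -0.17 to 0.55. Without Nipbl+/- replicate 1 it was 0.02. Per length, Aldh1a3 exceeded Cyp26b1 in every culture, by 1.997-fold, 2.62-fold and 1.998-fold in WT replicates 1, 2 and 3 and by 1.37-fold, 2.41-fold and 1.38-fold in Nipbl+/- replicates 1, 2 and 3. The ratios of the 2 genotypes overlapped. Exoc6b, a gene of the exocyst complex 24.6 kb from Cyp26b1, was the only tested gene within 500 kb and had a log2 fold change of 0.04 with a standard error of 0.06.

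Rarb encodes retinoic acid receptor beta and is itself a classical target of retinoic acid, through a response element close to the start of its shorter transcripts. The gene is listed (ENSMUSG00000017491) at chr14:16430842-16575472 on the minus strand. The RefSeq start site, 16575476, is 4 bases outside this gene model, so the model begins close to the element. The 100 bases before the start, chr14:16575477-16575576 on the minus strand of GRCm38.p6, are shown because they carry the element. Capitals mark it, 37 to 53 bases before the start.
Rarb: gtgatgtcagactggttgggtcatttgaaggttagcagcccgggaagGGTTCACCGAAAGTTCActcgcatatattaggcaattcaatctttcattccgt
The element is a DR5, a pair of direct repeats of a receptor-binding hexamer with 5 bases between them.

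A DR5 was found on either strand in 32 of 32851 promoter windows (0.0974%). Of the 59 windows that belong to genes of the retinoid pathway list, 2 held it, those of Rarb and of Cyp26a1. The Cyp26a1 match, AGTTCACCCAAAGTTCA, lies at chr19:37697776-37697792 and reads on the strand opposite to the gene. No DR5, and no direct repeat with a spacer of 1 or 2 bases, occurred in the windows of Aldh1a7, Cyp26b1 or Rarg, which says only that these letters are not in them. Aldh1a3 had no entry.

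Rarb was at 7.35, 6.85 and 5.43 CPM in WT replicates 1, 2 and 3, and at 8.75, 10.3 and 5.54 CPM in Nipbl+/- replicates 1, 2 and 3. Nipbl+/- replicates 1 and 2 were above all WT cultures, and Nipbl+/- replicate 3 was within the WT range. The mean was 6.54 ± 0.998 CPM for WT, against 8.19 ± 2.42 CPM for the mutant (SD, n = 3 each). The log2 fold change was 0.33 with a 95% interval from -0.19 to 0.85, so neither no difference nor a level of 1.80-fold of WT lay outside it. Without Nipbl+/- replicate 2 the log2 fold change was 0.13, and without Nipbl+/- replicate 3 it was 0.54.

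Nipbl+/- replicate 2, the culture with the highest Rarb level, also had the highest summed level of the 8 macrophage markers, 180 CPM against 115 and 90.5 CPM in Nipbl+/- replicates 1 and 3. In WT the orders differed. The macrophage sum was lowest in replicate 2, at 56.1 CPM, and Rarb was lowest in replicate 3. Whether the macrophage sum and Rarb are related was not tested. Reads of the neighbouring gene set a further limit. The plus-strand gene Top2b (topoisomerase II beta) converges on Rarb and ends 55 bases from it in the files' annotation. In GENCODE M21, exons of other genes, mostly Top2b, cover 2020 of 5265 exonic bases of Rarb (38.4%). The exonic length implied by the deposited RPKM values was 3.14 kb, and whether counting used strand is not given in the sources used here. The other 4 members share 0 exonic bases with another gene in that annotation.

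Rarg, retinoic acid receptor gamma, is a receptor expressed in cartilage, skin and mesenchyme. The gene (ENSMUSG00000001288) lies at chr15:102234938-102257517 on the minus strand. Its levels were 85.8, 74.6 and 90.0 CPM in WT replicates 1, 2 and 3, and 85.1, 74.4 and 85.4 CPM in Nipbl+/- replicates 1, 2 and 3. The 2 groups covered almost the same range. The mean was 83.5 ± 7.92 CPM for WT, against 81.7 ± 6.24 CPM for the mutant (SD, n = 3 each), and the log2 fold change was -0.03. Its 95% interval, from -0.22 to 0.16, was the narrowest of the 5 and corresponds to levels from 0.858-fold to 1.116-fold of WT. The sign of so small a value turned with library-size scaling alone, where the log2 fold change was 0.0055.

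Per length, Rarg was the most abundant member, at 19.4 ± 2.18 RPKM in WT and 19.5 ± 1.61 RPKM in Nipbl+/- MEFs (SD, n = 3 each). The remaining order of the mean WT levels was Aldh1a3 (2.72 RPKM), Rarb (2.05 ± 0.268 RPKM), Cyp26b1 (1.24 ± 0.0865 RPKM) and Aldh1a7 (1.05 RPKM). In WT cultures the ranges of Aldh1a3 and Rarb did not overlap, while those of Cyp26b1 and Aldh1a7 did. In Nipbl+/- MEFs, Rarb (2.64 ± 0.755 RPKM) and Aldh1a3 could not be ordered, and Cyp26b1 (1.46 ± 0.274 RPKM) stood above Aldh1a7 in every culture. Rarg exceeded Rarb from 8.04-fold to 12.2-fold in WT and from 5.35-fold to 11.4-fold in Nipbl+/- MEFs. Over all tested genes, 70.3% had a lower mean RPKM than Rarg, 28.9% than Aldh1a3, 27.5% than Rarb, 19.9% than Cyp26b1 and 12.0% than Aldh1a7.

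The Pearson correlation of log2 CPM between pairs of members, over the 6 cultures, lay between -0.619 (Aldh1a3 and Rarg) and 0.488 (Cyp26b1 and Rarg). Each is over 6 cultures of 2 genotypes and is given as a description. For each member, the genes most like it were taken as the 3 tested genes of highest correlation with an average log2 CPM above 0. For Aldh1a7 these were Gm14006 (r = 0.992), Gm14636 (0.987) and Tmbim1 (0.987). For Rarb the nearest was Tpm1, the alpha-tropomyosin gene (r = 0.991), followed by Klhdc3 and Gm9294. For Aldh1a3 they were Shroom2, Endod1 and Lce1g, for Cyp26b1 Gm12807, Psmg3 and Tmem109, and for Rarg Tbc1d17, Slc22a5 and Supt5. With 6 points such values are common. Among tested genes with an average log2 CPM above 0, 172 correlated with Aldh1a7 above 0.9. The same count was 53 for Aldh1a3, 44 for Cyp26b1, 49 for Rarb and 62 for Rarg.

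The other genes of the pathway were taken from a list of 53 genes that cover uptake, storage, conversion, synthesis, breakdown, receptors and coregulators. Of these, 32 lie on the plus strand, 1 was not found by name, and 20 lie on the minus strand, of which 15 were tested. Among the 10 tested genes that are not members, 0 were past the threshold in edgeR's quasi-likelihood test, and 3 had an unadjusted p-value under 0.05. DESeq2 and the exact test of edgeR also called 0. Their median log2 fold change was 0.0047, beside -0.0057 over all tested genes.

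Rbp4, the carrier of retinol in blood, was the largest of these differences. It had 2.13, 0.579 and 0.650 CPM in WT replicates 1, 2 and 3 and 0.361, 0.573 and 0.334 CPM in Nipbl+/- replicates 1, 2 and 3, and the mutant cultures were all lower. WT replicate 1 stood far above the rest and Nipbl+/- replicate 2 almost reached the lowest WT culture. Rbp4 differed by -1.37 on the log2 scale (SE 0.57, edgeR adjusted p = 0.276). In 980 of the 9061 tested genes (10.8%) all mutant cultures were below all WT cultures, and in 1087 (12%) all were above. Among the members this held for Aldh1a7 alone, in the first direction.

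The coactivators of the receptors, Ncoa1 and Ncoa2, had log2 fold changes of 0.23 (SE 0.07, edgeR adjusted p = 0.152) and 0.17 (SE 0.07, edgeR adjusted p = 0.271). Values were close to 0 for the corepressor Ncor1 (0.07) and for the ligand-dependent corepressor Nrip1 (-0.02). The retinol dehydrogenases Rdh5, Rdh11 and Rdh13 lay between -0.11 and 0.03, and Dgat1, which esterifies retinol and diacylglycerol, was at -0.09. None of these passed the threshold.

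**Figure D2:**
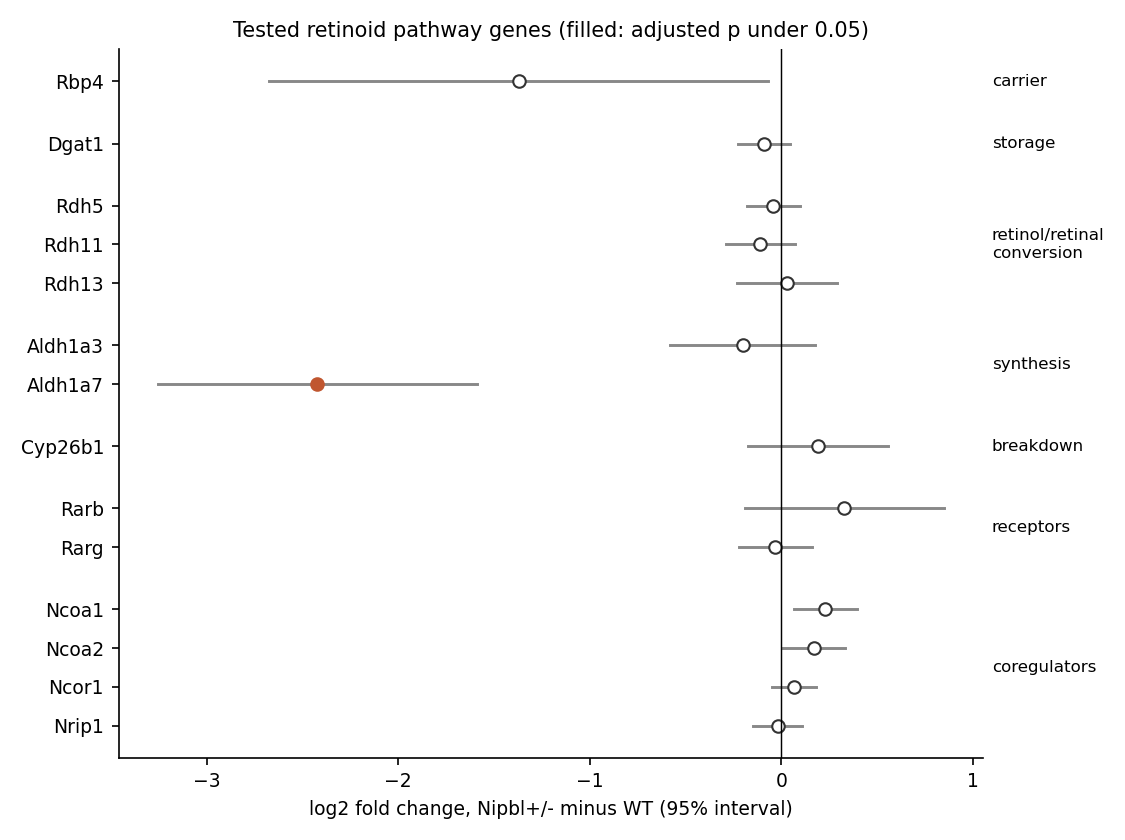
Log2 fold change (Nipbl+/- minus WT) with its 95% interval for the tested genes of the retinoid pathway named in the text, ordered by role. Aldh1a7, at -2.42, is the only filled point (adjusted p under 0.05), and the receptors and Cyp26b1 have intervals that include 0.

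Aldehyde dehydrogenases oxidize aldehydes in many pathways. Of 20 genes of this family listed, 9 lie on the plus strand and 11 were tested. Apart from Aldh1a7 and Aldh1a3 these were 9 genes, of which 0 were past the threshold in edgeR's quasi-likelihood test and 2 had an unadjusted p-value under 0.05. Their median log2 fold change was -0.01.

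Genes that respond to retinoic acid were listed from textbook knowledge, Rarb and Cyp26b1 included, and 11 of 23 could be tested. Of these 2 rose and 0 fell at an adjusted p-value under 0.05, beside 1.04% and 0.916% of all tested genes. The list was made with earlier results of these data known, so its counts are no independent evidence. The 9 that are not members had a median log2 fold change of 0.28. Both genes that rose encode homeodomain cofactors of Hox proteins that mark the proximal limb and trunk mesenchyme, Meis1 and Meis2. Both are counted again in the axial list below.

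Meis1 had 31.7, 39.0 and 30.7 CPM in WT replicates 1, 2 and 3 and 46.0, 54.0 and 52.9 CPM in Nipbl+/- replicates 1, 2 and 3. Meis2 had 51.4, 50.9 and 59.5 CPM in WT and 73.4, 83.8 and 95.3 CPM in Nipbl+/- MEFs. In both genes each mutant culture exceeded each WT culture. The log2 fold change was 0.59 for Meis1 (edgeR quasi-likelihood test, standard error 0.10, adjusted p = 0.033) and 0.64 for Meis2 (standard error 0.10, edgeR adjusted p = 0.0252). With 1 culture left out, Meis1 was past the threshold in 1 of 6 fits (without WT replicate 2) and Meis2 in 2 of 6 (without WT replicate 2 or 3), with log2 fold changes between 0.53 and 0.71 and between 0.54 and 0.73. The edgeR adjusted p-values of these fits ranged from 0.0117 to 0.143 for Meis1 and from 0.0291 to 0.119 for Meis2.

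Other genes of the list that take part in retinoic acid responses did not pass. The orphan receptor genes Nr2f1 and Nr2f2 were at 0.28 and -0.05, and the transglutaminase gene Tgm2 was at -0.05. Beside these, Rarb was at 0.33 and Cyp26b1 at 0.19, with wider intervals than Tgm2 or Nr2f2.

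Position along the body axis is read out by Hox genes, of which only the HoxA cluster is on the minus strand. Of 11 HoxA genes, all tested, 5 rose (Hoxa2, Hoxa3, Hoxa5, Hoxa6 and Hoxa7) and 2 fell (Hoxa11 and Hoxa13), beside 1.04% higher and 0.916% lower over all tested genes. The list was chosen with results of these data known, so its counts are no independent evidence. Over the whole axial list 23 of 74 genes were tested, with 7 higher and 2 lower, and the median log2 fold change was 0.24. Of 8 minus-strand tail bud genes, Gdf11 and Nr6a1 were tested, with log2 fold changes of 0.02 and 0.0032 that did not pass, and the other 6 had at most 1 read in any culture. The axial calls were lost without WT replicate 1, without Nipbl+/- replicate 1 or without Nipbl+/- replicate 2. There 0 axial genes passed in edgeR's quasi-likelihood test, beside 6 of 9215, 3 of 9226 and 11 of 9198 tested genes. The axial calls numbered 4 without WT replicate 3 (beside 65 of 9238 genes) and 2 without Nipbl+/- replicate 3 (beside 67 of 9225). With the replicate block they numbered 3 (beside 86 of 9061).

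Hoxa13, which marks the hand and foot plate and the end of the trunk, was also lower in every mutant culture. It had 6.72, 2.98 and 10.7 CPM in WT replicates 1, 2 and 3 and 0.451, 0.535 and 0.573 CPM in Nipbl+/- replicates 1, 2 and 3. Within WT the order differed, since Aldh1a7 was highest in replicate 1 and Hoxa13 in replicate 3. In a list of 25 limb genes, 9 were tested and all 9 had a log2 fold change below 0. Their median was -0.82, beside -0.0057 over all tested genes. The limb list was also made with earlier results of these data known, so its values and counts are no independent evidence. Pitx1 was below the WT range in Nipbl+/- replicate 1 alone (1.13 CPM, against 13.2 and 11.9 CPM in replicates 2 and 3). Of the 9 genes 2 fell, beside 0.916% of all tested genes, and both (Hoxa11 and Hoxa13) were also counted in the axial list. In edgeR's exact test 5 fell, beside 213 of all 9061 tested genes, and in DESeq2 6, beside 212. With the replicate block 1 fell, beside 52. In edgeR's quasi-likelihood test 4 fell without WT replicate 2 (beside 138 of 9219 genes) and 1 without WT replicate 3 (beside 39 of 9238). It was 0 without any other single culture, beside 3 to 67 of all tested genes. Limb tissue was removed at dissection, how completely is not given in the sources used here, and its part in the Aldh1a7 and Hox differences was not tested.

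**Figure D3:**
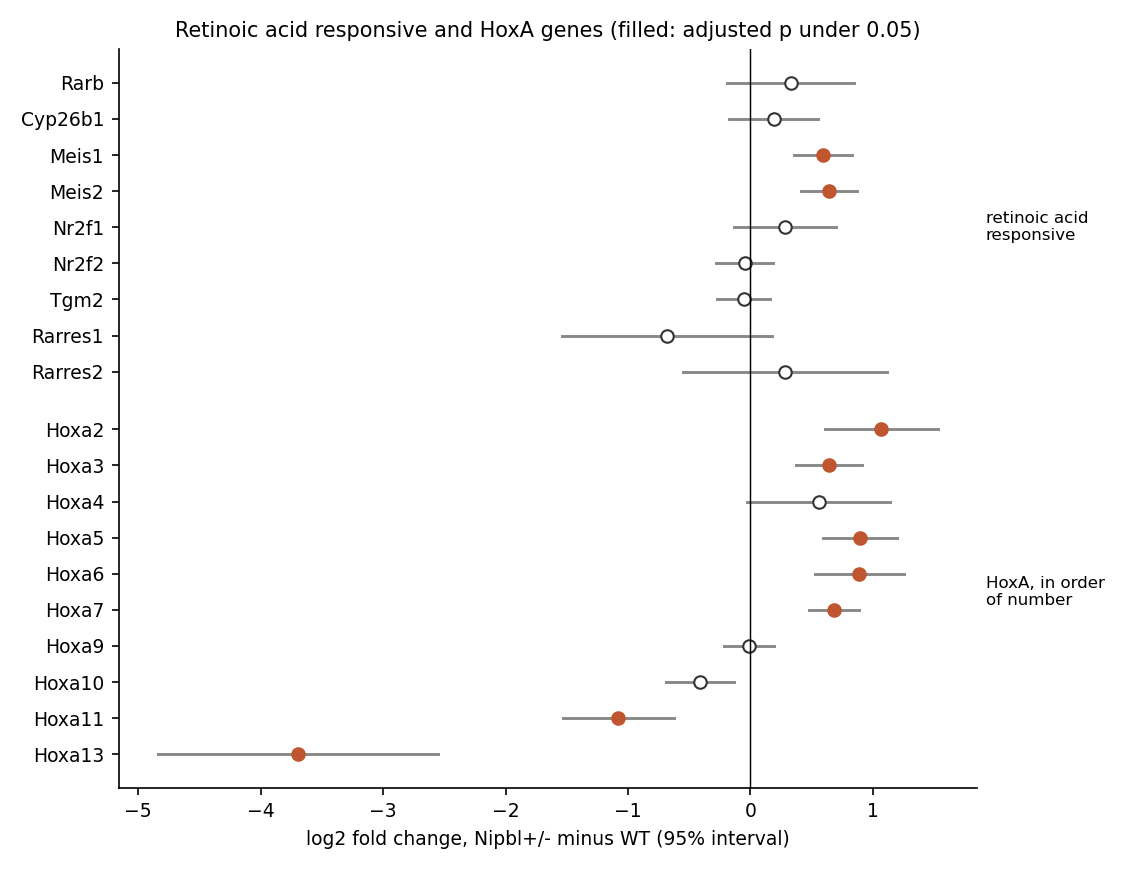
Log2 fold change (Nipbl+/- minus WT) with its 95% interval for tested retinoic acid responsive genes and HoxA genes, filled where the adjusted p-value was under 0.05; Hoxa4 belongs to both lists and is drawn with HoxA. Rarb and Cyp26b1 have intervals that include 0, Meis1 and Meis2 lie at 0.59 and 0.64, and the HoxA genes drawn run from 1.07 at Hoxa2 to -3.69 at Hoxa13.

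The spread between replicates differed among the members and sets what could be seen. EdgeR estimated a biological coefficient of variation between replicates, which leaves counting error out. It was 8.51% for Rarg, 13.2% for Cyp26b1, 14.4% for Aldh1a3, 19.2% for Rarb and 22.4% for Aldh1a7, against a median of 9.37% over all tested genes. With counting error included, the SD of Aldh1a7 CPM was 27.1% of the mean in WT and 48.1% in Nipbl+/- MEFs. For Rarg, with at least 1677 reads in every culture, counting error was at most 4.82% of the count as the half-width of a 95% Poisson interval. For Rarb, with 116 to 269 reads, it was between 12.1% and 18.7%.

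**Figure D4:**
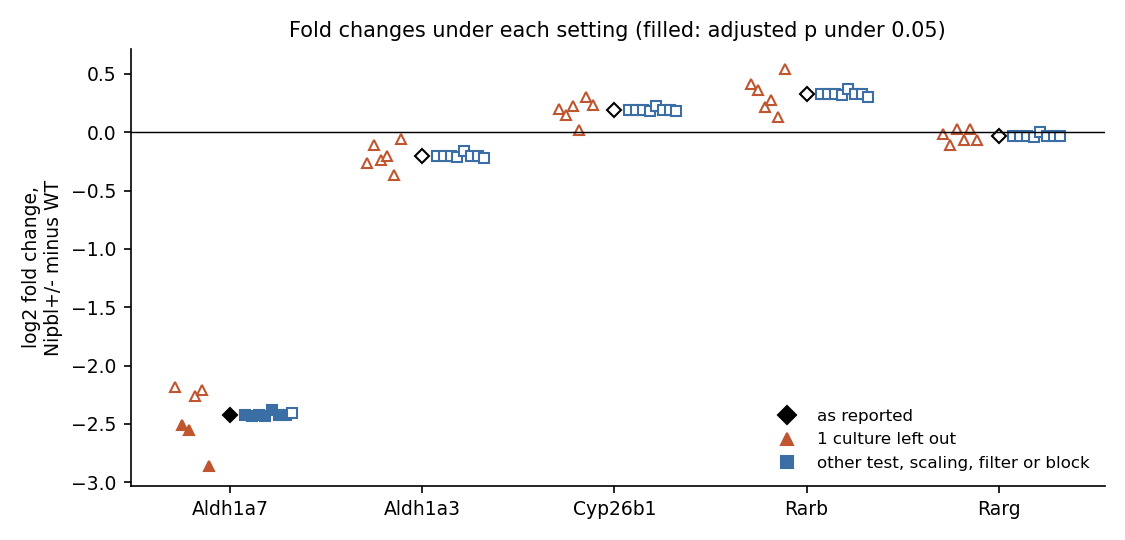
Log2 fold change of each gene as reported (diamonds), with each culture left out in turn (triangles, 6 fits) and under 8 other choices of test, scaling, filter or block (squares), filled where the adjusted p-value was under 0.05. Aldh1a7 stays between -2.86 and -2.18 with mixed filling, and no symbol of the other 4 genes is filled.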

How the data were processed

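Ribosomal RNA-depleted total RNA of 3 WT and 3 Nipbl+/- MEF cultures was sequenced by the authors, who aligned reads to mm10 with TopHat 2.0.10 and Ensembl 72 gene models. The tool that counted reads is not given in the sources used here. For each culture the authors deposited raw read counts and RPKM values (counts scaled by gene length and library size) for 38483 genes. Those counts entered edgeR 4.0.16 (R 4.3.3), where filterByExpr kept genes at its minimum count of 10, TMM set the scaling, and a quasi-likelihood fit on genotype alone gave p-values, adjusted by Benjamini-Hochberg over the 9061 tested genes (threshold 0.05). The standard error of a log2 fold change was its size over the root of F, and 95% intervals used the degrees of freedom of F. Log2 CPM used a prior count of 2. RPKM values were described without a test.

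The members and gene lists were chosen with earlier results of these data known. Genes named were the members, Nipbl, tested genes of the pathway and Hox lists, listed genes past the threshold, nearest neighbours and the 3 genes most correlated with each member. Gdf11, Nr6a1, Prrx1, Fn1, Ddr2, Nr2f1, Nr2f2, Tgm2, Rarres1, Rarres2, Pitx1 and the plus-strand genes were named after their values were seen. Alternatives were edgeR's exact test, DESeq2 1.42.0, other scalings and filters, the replicate number as a block and each culture left out. Steps were tested on simulated counts. Some listed genes are counted but not reported here by name or drawn. Promoter windows came from RefSeq (GRCm38.p6), transcripts and exons from GENCODE M21. Between replicates of a genotype, chi-square over degrees of freedom was 9.51 to 32.3, so none was a repeat deposit.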

Additional observations from a re-analysis of the deposited data

How the results depend on the processing

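The direction of Aldh1a7, Aldh1a3, Cyp26b1 and Rarb was the same in all 14 alternative fits of each. Aldh1a7 stayed past the threshold in 7 of 8 alternatives of test, scaling, filter and block and in 3 of 6 fits without a culture, and Aldh1a3, Cyp26b1, Rarb and Rarg in none. Rarg had a log2 fold change of 0.0055 with library size alone, and between -0.11 and 0.031 with a culture left out, above 0 without WT replicate 3 (0.02) or Nipbl+/- replicate 2. Over all genes 177 were past the threshold, against 432 with edgeR's exact test, 449 with DESeq2, 325 with no filter on low counts and between 3 and 268 with a culture left out. Leaving out a culture gave 0 to 1 for the members, the retinoid pathway list and the aldehyde dehydrogenases, 0 to 2 for the retinoic acid responsive genes, 0 to 10 for the axial genes and 0 to 4 for the limb genes. The limb count of 2 became 5 with edgeR's exact test, 6 with DESeq2 and 5 with no filter. With the replicate block, the counts were 86 over all genes, 0 for the members, 0 for the retinoid pathway, 3 for the axial genes, 1 for the limb genes and 0 for the aldehyde dehydrogenases, and the retinoic acid responsive genes kept 2. Deviations from the genotype means correlated at -0.06, -0.04 and -0.14 between cultures with the same number. Between cultures with different numbers they correlated from -0.07 to 0.12. Pairing by number was therefore not seen, but 3 cultures a genotype are too few to exclude it. The depth limits Aldh1a7 most, at 7 to 66 reads.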
